A study of Homo sapiens with 12 samples.

Results

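The Schlafen (SLFN) family was followed through RNA sequencing of 2 cholangiocarcinoma lines treated with a DNA methyltransferase inhibitor, a PARP inhibitor or both. The members were chosen by name: SLFN5, SLFN11, SLFN12, SLFN12L, SLFN13 and SLFN14 were matched by Ensembl identifier and made up 6 of the 60651 genes in the count table. HUCCT1 cells received vehicle (DMSO) or decitabine at 1 µM. EGI-1 cells received vehicle, decitabine at 0.5 µM, talazoparib at 200 nM per the labels, or decitabine at 0.5 µM together with talazoparib at 200 nM (the combination). The names of both libraries with talazoparib alone carry 50 in place of 200, so the talazoparib dose is uncertain. All 12 libraries were taken at 72 h, with 2 libraries in each of the 6 conditions, and nothing in the sources used here says whether these came from separate cultures, so that p-values measure the spread between these libraries only. Both are commercial bile duct cancer lines, each a single established culture. The lines differed in decitabine dose and in library series, so line, dose and library series cannot be told apart.

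Schlafen proteins share an N-terminal RNase-like core, and the longer members also carry a helicase-like C-terminal part. SLFN11 is recruited to stressed replication forks by the single-strand binding protein RPA, blocks fork restart and cleaves certain transfer RNAs, and its presence is a known determinant of killing by PARP inhibitors and other DNA-damaging drugs. The SLFN11 gene is known to be silenced by promoter methylation in many tumor lines. Decitabine traps DNA methyltransferases and lowers methylation as cells divide, whereas talazoparib traps PARP1 on DNA.

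The 6 genes form a cluster on chromosome 17, at chr17:35243071-35560819 (GRCh38, GENCODE release 44), which spans 317749 bases. SLFN5 (ENSG00000166750.10, chr17:35243071-35273655) lies on the plus strand. The other 5 lie on the minus strand, in the order SLFN11 (ENSG00000172716.16, chr17:35350305-35373701), SLFN12 (ENSG00000172123.13, chr17:35410922-35433283), SLFN13 (ENSG00000154760.14, chr17:35435096-35448837), SLFN12L (ENSG00000205045.11, chr17:35464249-35537678) and SLFN14 (ENSG00000236320.4, chr17:35543985-35560819). Counts are gene totals over exons. SLFN11 and SLFN13 shared 617 exon words of 50 bases, which were 9.69% of the words of SLFN11 and 6.5% of those of SLFN13, and how the counting treated reads that match both genes is not given in the sources used here. SLFN12L overlapped 7 annotated genes, so its counts are uncertain.

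Because decitabine lowers methylation at CpG dinucleotides, stretches upstream of gene starts are shown. They cover the 3 members found in the RefSeq promoter table (GRCh38.p14) and end at the GENCODE gene start. Each is written 5′ to 3′ on the minus strand, with CpG in capitals. They are SLFN11 at chr17:35373702-35373871, SLFN12 at chr17:35433284-35433424 and SLFN12L at chr17:35537679-35537928.
SLFN11: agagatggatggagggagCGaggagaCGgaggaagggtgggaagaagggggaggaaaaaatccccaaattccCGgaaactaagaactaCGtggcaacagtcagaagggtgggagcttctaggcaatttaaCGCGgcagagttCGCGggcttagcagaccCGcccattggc
SLFN12: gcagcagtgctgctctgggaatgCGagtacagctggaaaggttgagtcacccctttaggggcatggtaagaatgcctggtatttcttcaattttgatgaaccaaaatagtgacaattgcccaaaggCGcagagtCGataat
SLFN12L: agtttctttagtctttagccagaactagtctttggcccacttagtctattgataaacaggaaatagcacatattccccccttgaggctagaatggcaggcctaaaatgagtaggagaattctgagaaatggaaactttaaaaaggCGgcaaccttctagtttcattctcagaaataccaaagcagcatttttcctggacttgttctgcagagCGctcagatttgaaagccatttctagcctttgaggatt
The full promoter window held 300 bases, 250 before the RefSeq start and 50 after. For SLFN11 (chr17:35373572-35373871) and SLFN12 (chr17:35433125-35433424) the RefSeq start lay downstream of the GENCODE start. Their windows therefore reach further into the gene than the printed bases. Over these windows SLFN11 held 18 CpG, SLFN12 13 and SLFN12L 2, against a median of 14 over 35116 promoters. The share of promoters with as few CpG or fewer was 57.1% for the SLFN11 window, 49.7% for SLFN12 and 18.2% for SLFN12L. Both strands were searched for an ETS core (CCGGAA), which was found in the SLFN11 and SLFN12 windows and in 17.2% of all promoters. An interferon-response element (GAAANNGAAA) was found in the SLFN12L window and in 3.57% of all promoters. These are matches of letters, and methylation was not measured in these files.

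Library totals ran from 32519985 to 34965627 counts in HUCCT1 and from 23139065 to 33181930 in EGI-1, and a count of 0 allowed a level of up to 0.0904 to 0.130 CPM (counts scaled to library size, per 1e6) in an EGI-1 library (3 counts of the total; this covers counting error only). Biliary markers fitted the labels, since all 7 (KRT7, KRT19, KRT8, KRT18, EPCAM, SOX9 and CDH1) were above 3 counts in every library, while the 4 hepatocyte markers summed to between 1 and 7 counts. KRT7 was far lower in EGI-1, at 1185 to 1946 counts, than in HUCCT1, at 129181 to 227208. EGI-1 combination replicate 2 stood apart from the other EGI-1 libraries. It held 47 genes with at least 10 counts that were at 0 in the other 7, and no other EGI-1 library held any such gene. In that library the leukocyte gene PTPRC had 381 counts (1 to 7 in the others), the T cell receptor gene CD3E 148 (0 to 4) and CD4 89 (12 to 30). Its 8 immune markers summed to 736 counts, against 95 to 147 in the other EGI-1 libraries, and 7 of the 8 were above 3 counts. Values of SLFN11, SLFN12L and SLFN13 in the combination arm are therefore given with and without it.

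SLFN11 showed the largest fold change with decitabine among the members tested in HUCCT1. HUCCT1 held 26 and 28 counts of SLFN11 with vehicle and 100 and 82 with decitabine. Both decitabine libraries were above both vehicle libraries. The level was 0.891 ± 0.049 CPM with vehicle and 2.94 ± 0.25 CPM with decitabine (SD, n = 2). The gene rose by 1.71 on the log2 scale (SE 0.29, 95% interval 1.12 to 2.31, adjusted p = 4.3e-05, edgeR quasi-likelihood test with Benjamini-Hochberg adjustment), or 3.28-fold. Of the genes tested, 8.46% had a log2 fold change as high or higher. The level with decitabine was still low beside SLFN5, SLFN12 and SLFN13 in HUCCT1, at 0.492 ± 0.042 CPM per kb of exon. In bulk RNA, a change in a few cells and a smaller change in all cells cannot be told apart.

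In EGI-1, SLFN11 was at 0 counts in 7 of the 8 libraries, including both with decitabine, both with talazoparib and combination replicate 1. Combination replicate 2 held 18 counts, equal to 0.592 CPM. The gene therefore had counts in 1 EGI-1 library only, the one in which PTPRC and CD3E were high, and the part of those immune transcripts in the value was not tested. Without that library SLFN11 was at 0 in all EGI-1 arms. The level in HUCCT1 vehicle was at least 6.83-fold higher than in EGI-1 vehicle, and that in HUCCT1 decitabine at least 23.5-fold higher than in EGI-1 decitabine, taking 3 counts per library as the EGI-1 level.

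SLFN13, a nuclease known to cut transfer and ribosomal RNA, showed the widest gap between the lines. HUCCT1 held 1876 and 1567 counts with vehicle and 1439 and 1221 with decitabine. The 2 decitabine libraries were below both vehicle libraries, and the mean fell from 56.8 ± 7.1 to 43.1 ± 2.6 CPM (SD, n = 2). The log2 fold change was -0.41 (SE 0.12, 95% interval -0.66 to -0.16, adjusted p = 9.8e-03, edgeR). That call was lost without vehicle replicate 1 (-0.28, adjusted p = 0.162, edgeR) and without decitabine replicate 2 (-0.35, adjusted p = 0.0962, edgeR), with the direction kept. SLFN13 and SLFN11 thus moved in opposite directions in the same libraries, although they share sequence. There were 72.2 and 56.0 SLFN13 counts per SLFN11 count with vehicle and 14.4 and 14.9 with decitabine.

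EGI-1 had no SLFN13 count in its vehicle, decitabine and talazoparib libraries. Combination replicate 1 held 3 counts and replicate 2 held 16, which is 0.889 per SLFN11 count in the latter library, far from the ratios in HUCCT1. Replicate 1, in which PTPRC was at 2 counts and CD3E at 0, was at the floor of 3 counts. HUCCT1 vehicle was at least 437-fold higher than EGI-1 vehicle, and HUCCT1 decitabine at least 343-fold higher than EGI-1 decitabine.

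**Figure D1:**
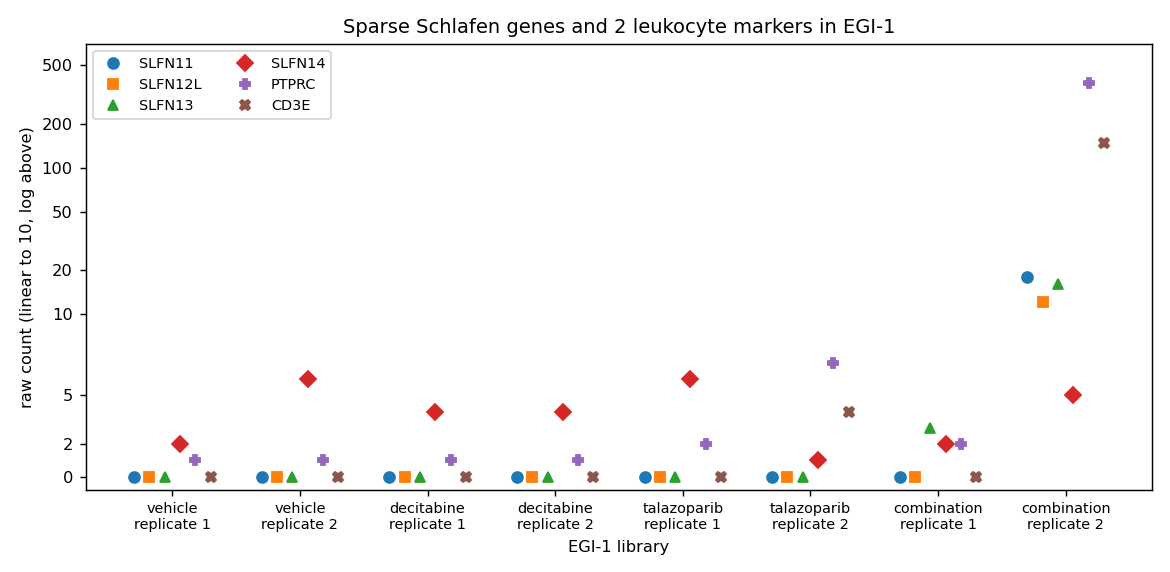
Raw counts of SLFN11, SLFN12L, SLFN13 and SLFN14 in the 8 EGI-1 libraries (x axis), with the leukocyte markers PTPRC and CD3E; the y axis is linear up to 10 counts and logarithmic above. Combination replicate 2 holds 18 SLFN11, 12 SLFN12L and 16 SLFN13 counts beside 381 PTPRC and 148 CD3E counts, and SLFN14 stays between 1 and 6 in every library.

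SLFN5, a nuclear member known to respond to interferon, had the highest mean level per kb of exon in all 6 conditions, although in HUCCT1 vehicle its level of 6.23 ± 0.52 CPM per kb overlapped that of SLFN13 at 6.09 ± 0.76 (SD, n = 2). HUCCT1 held 2138 and 1892 counts with vehicle and 3410 and 2805 with decitabine. Again the 2 groups did not overlap. The level was 66.5 ± 5.6 CPM with vehicle and 100.6 ± 8.3 CPM with decitabine (SD, n = 2), a rise of 0.59 on the log2 scale (SE 0.11, 95% interval 0.35 to 0.82, adjusted p = 2.3e-04, edgeR).

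In EGI-1 the SLFN5 counts were 2363 and 2063 with vehicle, 2494 and 1816 with decitabine, 1698 and 2507 with talazoparib, and 1988 and 2596 with the combination. Scaled to depth, the means were 75.8 ± 2.4, 74.6 ± 11.7, 70.5 ± 1.8 and 83.3 ± 3.0 CPM in that order (SD, n = 2). The 2 decitabine libraries enclosed the vehicle values, and both combination libraries lay above both vehicle libraries. The log2 fold changes against vehicle were -0.02 (95% interval -0.20 to 0.16) for decitabine, -0.10 (-0.28 to 0.08) for talazoparib and 0.13 (-0.05 to 0.31) for the combination, and none passed the test (adjusted p = 0.977, 0.629 and 0.341, edgeR). The intervals for the single drugs and the combination all lay below the HUCCT1 estimate of 0.59. In order of mean level, HUCCT1 decitabine stood apart from EGI-1 combination, which stood apart from EGI-1 vehicle. The EGI-1 vehicle, decitabine and talazoparib conditions and HUCCT1 vehicle each overlapped the next in that order.

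The decitabine effect on SLFN5 was larger in HUCCT1 than in EGI-1 by 0.62 on the log2 scale (SE 0.14, 95% interval 0.34 to 0.90, adjusted p = 2.8e-03, interaction of line and drug in edgeR over all 12 libraries). It was the only 1 of the 4 members in that fit to be called, where 15.9% of all genes tested were called. SLFN12 had a difference of -0.34 (SE 0.21, adjusted p = 0.305, edgeR). For SLFN11 and SLFN13 the difference cannot be estimated, since EGI-1 was at 0 in both arms. With 1 µM in one line and 0.5 µM in the other, the effects of line and dose cannot be told apart here.

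SLFN12, which lacks the helicase-like part and becomes a cell-killing RNase when small molecules tether it to the phosphodiesterase PDE3A, was detected in every library. HUCCT1 held 412 and 364 counts with vehicle and 397 and 307 with decitabine, or 12.8 ± 1.1 and 11.4 ± 1.4 CPM (SD, n = 2). These groups overlapped, and the log2 fold change of -0.18 (95% interval -0.49 to 0.13) did not pass the test (adjusted p = 0.40, edgeR). EGI-1 held 216 and 210 counts with vehicle, 277 and 200 with decitabine, 232 and 341 with talazoparib, and 214 and 328 with the combination. The means were 7.32 ± 0.33, 8.25 ± 1.34, 9.60 ± 0.22 and 9.76 ± 1.45 CPM (SD, n = 2), and both libraries of each talazoparib-treated arm lay above both vehicle libraries. The log2 fold change was 0.40 with talazoparib (SE 0.14, 95% interval 0.09 to 0.70, adjusted p = 0.155, edgeR) and 0.41 with the combination (SE 0.14, 95% interval 0.11 to 0.72, adjusted p = 0.0539, edgeR). Neither passed after adjustment. The combination value was called with DESeq2 size factors, without the low-count filter, from the 4 libraries of those arms alone, and without combination replicate 1 (0.55, adjusted p = 0.0322, edgeR). Without combination replicate 2, the library with high immune markers, it was 0.25 (adjusted p = 0.401, edgeR). The talazoparib value was called from the 4 libraries of its arms alone (0.39, adjusted p = 0.0428, edgeR). With decitabine alone it was 0.18 (95% interval -0.12 to 0.49, adjusted p = 0.787, edgeR).

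SLFN12 was also higher in HUCCT1 than in EGI-1 with vehicle, by 0.81 on the log2 scale (SE 0.15, 95% interval 0.50 to 1.11, adjusted p = 7.9e-05, edgeR), or 1.75-fold. In order of mean level, the 2 HUCCT1 conditions overlapped each other, and so did HUCCT1 decitabine and the EGI-1 combination. The combination and talazoparib also overlapped, talazoparib stood apart from decitabine, and decitabine overlapped vehicle.

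SLFN12L, a close relative of SLFN12, was near 0 throughout. Its counts were 0 and 0 in HUCCT1 vehicle, 2 and 6 in HUCCT1 decitabine, and 0 in 7 of 8 EGI-1 libraries. EGI-1 combination replicate 2 held 12 counts, so this gene too had counts in EGI-1 only in the library with high PTPRC and CD3E, and their part in the value was not tested. SLFN14, a ribosome-associated nuclease known from platelets and red cell precursors, had 1 and 2 counts in HUCCT1 vehicle and 5 and 2 in HUCCT1 decitabine. It had 2 and 6 in EGI-1 vehicle, 4 and 4 with decitabine, 6 and 1 with talazoparib and 2 and 5 with the combination. At this depth no difference in SLFN14 was detectable, and 347 of its exon bases are shared with a transcript on the opposite strand. Members above 3 counts in at least 1 combination library numbered 6 with replicate 2 and 2 without it. SLFN14 was among the 6, with 5 counts in replicate 2, but it also passed 3 counts in EGI-1 vehicle, decitabine and talazoparib libraries.

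**Figure D2:**
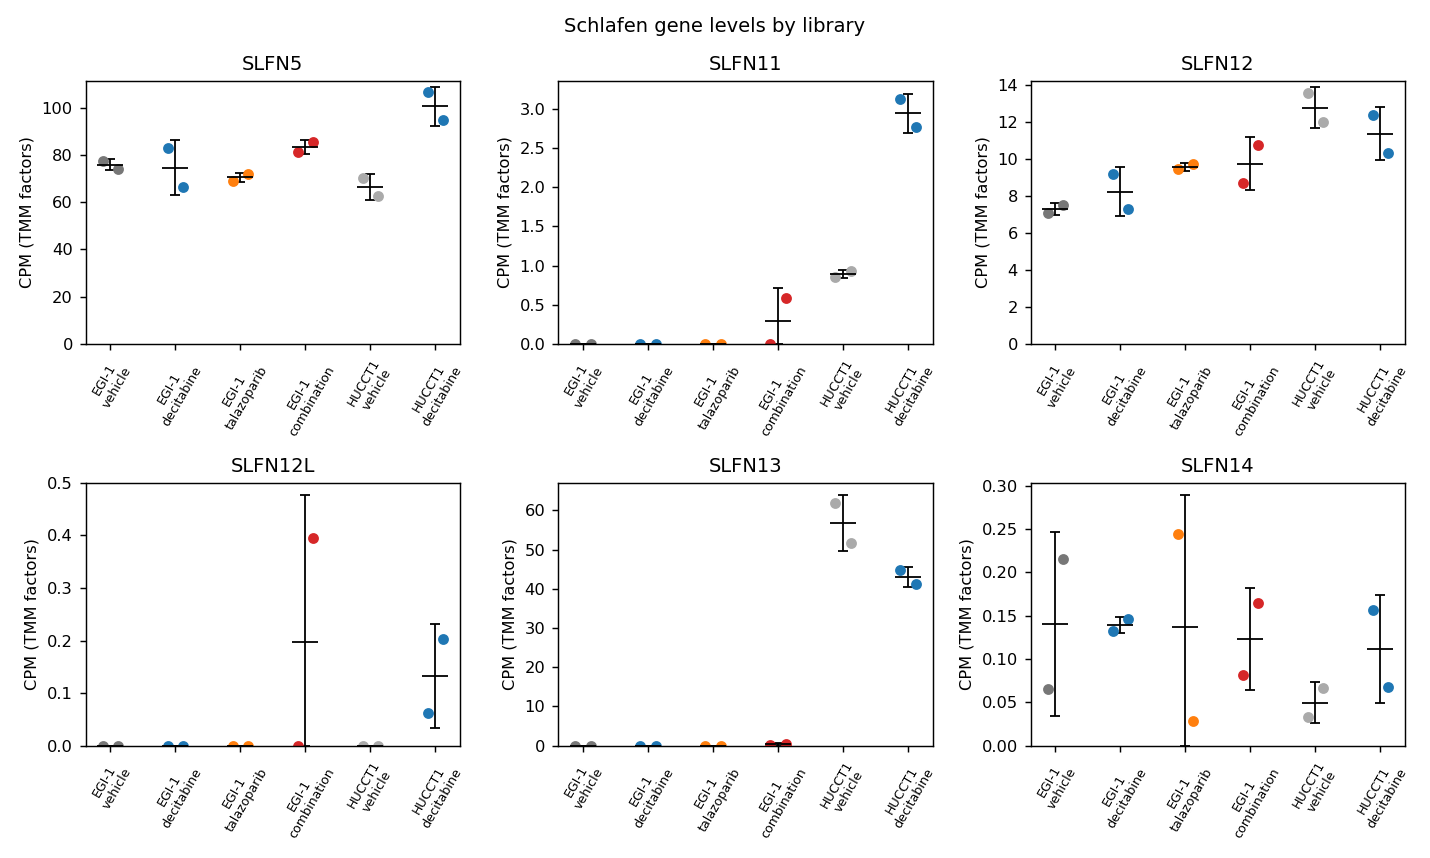
Level of each Schlafen gene (CPM with TMM factors, linear axis from 0, 1 panel a gene) in the 6 conditions; points are libraries, horizontal bars means and whiskers SD (n = 2, drawn down to 0 at most). SLFN11 and SLFN13 are highest in HUCCT1, SLFN5 and SLFN12 are present in every library, and the scales of SLFN12L and SLFN14 stay under 0.5 CPM.

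Counted over the family, decitabine in HUCCT1 changed 3 of the 4 members tested, with SLFN5 and SLFN11 higher and SLFN13 lower, where 33.5% of the 22479 genes tested were called (edgeR; DESeq2 also called 3). SLFN12L and SLFN14 did not pass the low-count filter. In EGI-1 only SLFN5 and SLFN12 passed that filter, and edgeR called 0 of these 2 in each of 6 comparisons, as did DESeq2. Over all 22406 genes tested, 0.544% were called for decitabine, 4.12% for talazoparib and 18.7% for the combination against vehicle. The combination against decitabine gave 7.68%, the combination against talazoparib 1.92%, and the combination beyond the sum of the single effects 0.161%. At an unadjusted p under 0.05, edgeR and DESeq2 each had 1 member with talazoparib against vehicle (SLFN12 in edgeR), 1 with the combination against vehicle (SLFN12) and 1 with the combination against talazoparib (SLFN5), and 0 in the other 3 comparisons.

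For the combination against decitabine, the log2 fold change was 0.14 for SLFN5 (SE 0.09, adjusted p = 0.362, edgeR) and 0.23 for SLFN12 (SE 0.14, adjusted p = 0.384, edgeR). Against talazoparib it was 0.23 for SLFN5 (SE 0.09, adjusted p = 0.228, edgeR) and 0.02 for SLFN12 (SE 0.14, adjusted p = 0.977, edgeR). Beyond the summed single effects it was 0.25 for SLFN5 (SE 0.12, 95% interval -0.01 to 0.50) and -0.17 for SLFN12 (SE 0.20, 95% interval -0.59 to 0.26). Leaving out decitabine replicate 1 brought SLFN5 past the threshold against decitabine (0.31, adjusted p = 0.00818, edgeR) and beyond the summed effects (0.42, adjusted p = 0.0477, edgeR). Leaving out decitabine replicate 2 instead gave -0.0018 (adjusted p = 0.993, edgeR) and 0.10 (adjusted p = 0.885, edgeR). These comparisons share libraries. SLFN11 and SLFN13 were called higher in combination comparisons where the filter was dropped or combination replicate 1 was left out, and SLFN13 also where all 12 libraries were fitted together. In each of these fits combination replicate 2, with its 18 and 16 counts, was included.

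**Figure D3:**
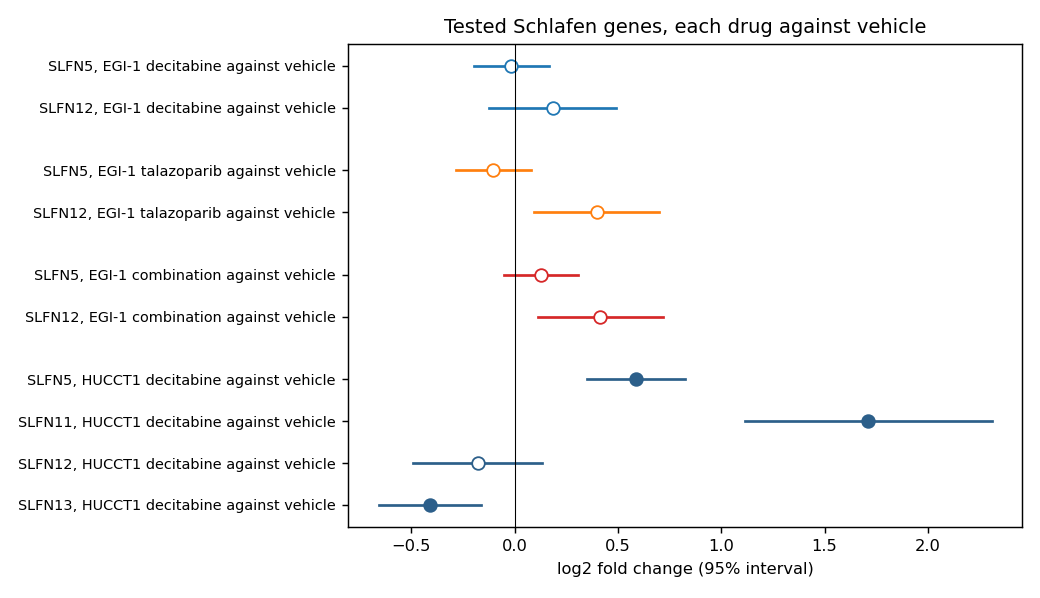
Log2 fold change against vehicle (x axis) of each Schlafen gene tested in EGI-1 with decitabine, talazoparib or both and in HUCCT1 with decitabine; lines are 95% intervals of the edgeR fit, and filled points have an adjusted p under 0.05. The 3 filled points are SLFN5 at 0.59, SLFN11 at 1.71 and SLFN13 at -0.41, all in HUCCT1.

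With vehicle, 3 of the 4 members tested were higher in HUCCT1 than in EGI-1, namely SLFN11, SLFN12 and SLFN13, where 55.8% of genes were called between the lines (edgeR). The SLFN11 call was lost without HUCCT1 vehicle replicate 2 and in DESeq2. SLFN5 was 0.19 lower in HUCCT1 on the log2 scale (SE 0.10, adjusted p = 0.0996, edgeR), and upper-quartile scaling made that a call (-0.31, adjusted p = 0.0107, edgeR). Per kb of exon, the family summed to 15.95 CPM in HUCCT1 vehicle and 9.12 in EGI-1 vehicle. SLFN5 made up 39.0% of the HUCCT1 sum, SLFN13 38.2%, SLFN12 21.8% and SLFN11 0.933%. In EGI-1, SLFN5 made up 77.9% and SLFN12 21.8%, and SLFN13 contributed nothing. Decitabine moved the HUCCT1 shares to 53.4% for SLFN5, 26.2% for SLFN13, 17.5% for SLFN12 and 2.79% for SLFN11, with the family sum at 17.7 CPM per kb. These shares follow from the levels above and were not tested apart from them.

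**Figure D4:**
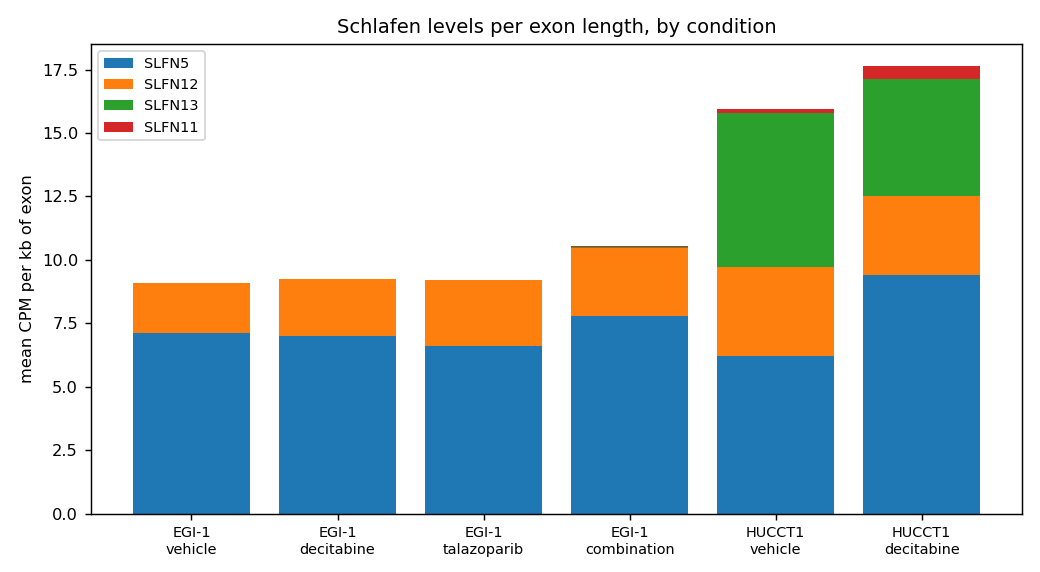
Mean CPM per kb of exon (y axis, stacked from 0) of SLFN5, SLFN12, SLFN13 and SLFN11 in the 6 conditions, n = 2 libraries each; SLFN12L and SLFN14, each under 0.02, are not drawn. SLFN13 supplies 6.09 of 15.95 in HUCCT1 vehicle and is absent from EGI-1 vehicle, and SLFN11 grows from 0.149 to 0.492 in HUCCT1 with decitabine.

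The cluster did not move as a block in HUCCT1. Of 73 other genes in the table that start within 500 kb of a Schlafen gene, 17 were tested, of which 1 was higher and 3 lower with decitabine, against the background of 33.5%. The higher 1 was the lncRNA ENSG00000266947, whose start lies 108 bases from that of SLFN5 on the opposite strand. It held 25 and 32 counts with vehicle and 61 and 54 with decitabine, and so rose with SLFN5 (log2 fold change 0.98, SE 0.32, adjusted p = 0.0187, edgeR). Whether the counting used strand is not given in the sources used here. Among those that fell were CCT6B, a chaperonin subunit (log2 fold change -1.42, SE 0.46, adjusted p = 0.0177, edgeR), and RAD51D, a gene of homologous recombination, from 34.3 ± 1.4 to 22.1 ± 1.8 CPM (SD, n = 2; adjusted p = 1.9e-04, edgeR). In the EGI-1 combination, 20 neighbours were tested and 2 were lower, the DNA ligase gene LIG3 (-0.42) and the ubiquitin ligase gene RFFL (-0.34), both also called without combination replicate 2. With decitabine alone in EGI-1 edgeR called 0 of 20.

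**Figure D5:**
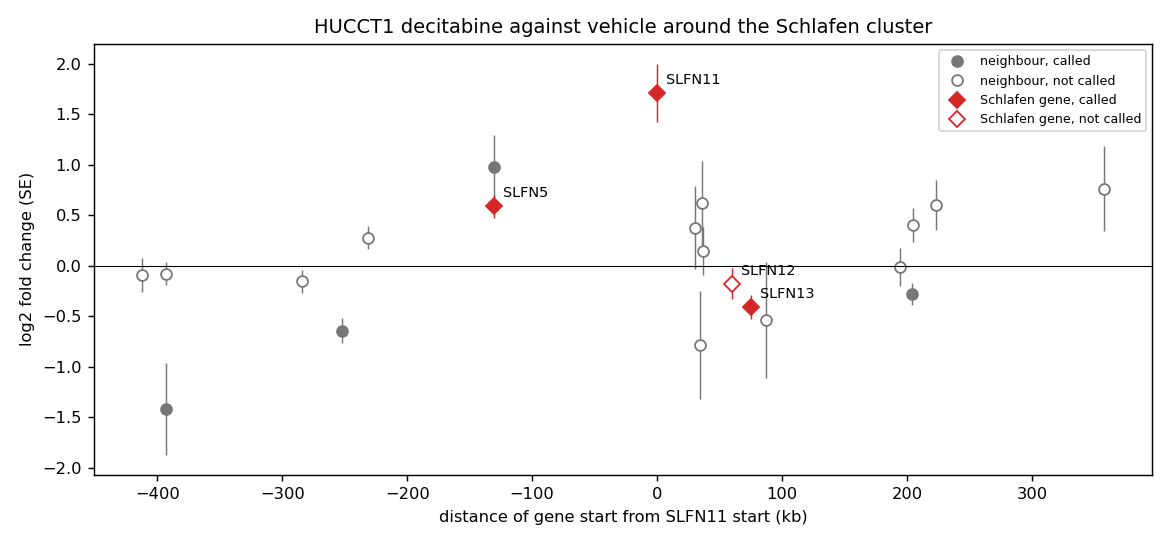
Log2 fold change with decitabine in HUCCT1 (y axis, whiskers are SE) of the 4 tested Schlafen genes (red diamonds) and 17 tested neighbours (grey circles) by distance of the gene start from the SLFN11 start in kb; filled symbols have an adjusted p under 0.05. SLFN11 at 1.71 is the highest point, SLFN5 lies beside a neighbour that also rose, and SLFN12 and SLFN13 lie below 0.

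Other genes were read from 6 lists drawn from general knowledge. They covered SLFN11 partners in replication stress, translation and ribosome stress, SLFN12 partners, SLFN11 regulators, type I interferon signalling and PARP inhibitor response. The lists held 74 genes, 71 of them tested in each line. In HUCCT1, decitabine raised 9 and lowered 27 of these, where 33.5% of all genes tested were called. The share called was 69.2% of the SLFN11 partners, 55.6% of the PARP inhibitor response genes, 46.7% of the interferon genes, 46.2% of the SLFN11 regulators and 30.0% of the translation genes. Of the 13 replication stress partners of SLFN11 none rose and 9 fell, with a median log2 fold change of -0.40 against 0.00 over all genes. The replication licensing factor CDT1 fell from 148 ± 16 to 94.1 ± 10.2 CPM, the checkpoint kinase ATR from 127 ± 22 to 88.0 ± 5.7 and the helicase subunit MCM3 from 213 ± 8 to 151 ± 1 (SD, n = 2). Of 18 PARP inhibitor response genes tested, 1 rose and 9 fell (median -0.33), among them the homologous recombination genes BRCA1 (-0.80, SE 0.11) and BRCA2 (-0.73, SE 0.14), and RNASEH2A (-0.84, SE 0.31), a subunit of the enzyme that removes ribonucleotides from DNA.

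Of 13 tested genes listed for transcription or silencing of SLFN11, 2 rose and 4 fell in HUCCT1. The ETS family factor FLI1 rose from 0.280 ± 0.116 to 6.16 ± 0.12 CPM (SD, n = 2; log2 fold change 4.43, SE 0.31, adjusted p = 2.5e-11, edgeR), and the methyltransferase gene DNMT3B rose by 0.57 (SE 0.12). UHRF1, which recruits the maintenance methyltransferase, changed by -0.71 (SE 0.11). Of 15 interferon signalling genes 5 rose and 2 fell (median 0.28). IRF7 rose from 5.76 ± 1.72 to 14.9 ± 4.1 CPM and the antiviral gene MX1 from 13.7 ± 1.6 to 28.6 ± 1.6, while IFIT1 fell from 13.6 ± 0.7 to 6.75 ± 2.10 (SD, n = 2). PDE3A, the partner of SLFN12, fell from 43.2 ± 4.9 to 10.98 ± 0.52 CPM (SD, n = 2; log2 fold change -1.99, SE 0.13, adjusted p = 8.7e-12, edgeR), 1 of 2 SLFN12 partners tested. Of 10 translation and ribosome stress genes 1 rose and 2 fell, with the ribosome rescue factor PELO at 0.50 (SE 0.11), the helicase ASCC3 at -0.47 (SE 0.13) and the kinase EIF2AK4 at -0.31 (SE 0.11). Markers of other cell types moved in the same HUCCT1 libraries. The 8 immune markers summed to 97 and 116 counts with vehicle and 219 and 222 with decitabine, and CD3E went from 0 and 1 to 17 and 23. PTPRC stayed at 3 to 4 counts and MS4A1 at 0. The 4 fibroblast markers summed to 813 and 901 counts with vehicle and 5244 and 5731 with decitabine, nearly all COL1A1, and the 4 platelet markers to 185 and 222 against 312 and 272. Their part in the Schlafen values was not tested.

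In EGI-1 the combination raised 11 and lowered 11 of the 71 listed genes, where 18.7% of all genes tested were called. The share called was 6 of 12 among the SLFN11 regulators, 33.3% of the interferon genes, 30.0% of the translation genes, 23.1% of the SLFN11 partners and 16.7% of the PARP inhibitor response genes. These counts include combination replicate 2, whose immune markers summed to 736 counts. Without it, with replicate 1 taken to vary like the other libraries, 8 were higher and 12 lower, and 18 of the 22 calls were kept in the same direction. The named genes that lost their call were PDE3B (0.22, adjusted p = 0.396, edgeR), OAS1 (0.37, adjusted p = 0.173, edgeR) and XRCC1 (-0.31, adjusted p = 0.104, edgeR). PDE3A fell here too, from 11.97 ± 0.31 to 5.58 ± 0.13 CPM (SD, n = 2; log2 fold change -1.11, SE 0.12, adjusted p = 5.6e-06, edgeR), while PDE3B was at 10.2 ± 1.1 and 14.8 ± 4.1 CPM (log2 fold change 0.54, adjusted p = 0.0202, edgeR). Of the 15 interferon genes 5 rose and none fell, with ISG15 at 0.51 (SE 0.08), STAT2 at 0.49 (SE 0.07) and OAS1 at 0.40 (SE 0.13). The SLFN11 partners gave 3 lower of 13 (MCM3 at -0.39, CHEK1 at -0.30 and the helicase DHX9 at -0.28). Regulators of SLFN11 gave 3 higher and 3 lower of 12, led by ETS1 at 0.51 (SE 0.07), the histone methyltransferase EZH2 at -0.50 (SE 0.07) and DNMT3B at 0.43 (SE 0.08). The translation list gave 2 higher (EIF2AK4 at 0.34 and ZNF598 at 0.33) and 1 lower (ATF4 at -0.29) of 10. The PARP inhibitor response list gave 3 lower of 18 (SHLD2 at -0.43, XRCC1 at -0.38 and RNASEH2B at -0.30). The same 71 genes gave 1 call with decitabine alone, PDE3A, where 0.544% of all genes were called. They gave 5 with talazoparib alone (MCM3, EZH2, IRF7, ETS1 and EIF2AK4), 3 higher and 2 lower, where 4.12% were called. SLFN11 was at 0 in the libraries with either drug alone. The combination gave 5 higher and 8 lower against decitabine (7.68% of all genes called). Against talazoparib it gave 0 higher and 2 lower, IRF7 and PDE3A (1.92% called). Beyond the summed effects 0 were higher and 1 was lower, IRF7 (0.161% called). These combination counts also include replicate 2. The genes were named after their values were seen.

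The genes most like each called member were found by the root mean square (RMS) difference of log2 CPM from the own line's vehicle, over 19937 genes tested in both lines. For SLFN5 over 12 libraries these were GPCPD1 (0.058), RPF2 (0.071) and FGD6 (0.082), against a median of 0.401 over all genes. For SLFN11 they were IKZF3 (0.446), CD96 (0.448) and IQGAP2 (0.473), against a median of 1.199 for that member. For SLFN13 they were TBC1D10C (0.468), VIM (0.471) and PIK3IP1 (0.474), against a median of 1.053. The first 2 named for SLFN11 are lymphocyte genes, with 92 and 83 counts in EGI-1 combination replicate 2 and 14 and 6 in replicate 1. Without that library the order changed. For SLFN11 the closest were then LINC00342 (0.087), FHDC1 (0.091) and the transporter gene SLC4A11 (0.104), against a median of 0.761. Their changes with decitabine in HUCCT1 (log2 fold change 1.56 for LINC00342 and 1.53 for SLC4A11) enter this distance. Their closeness to the change of SLFN11 therefore follows from the way they were chosen. GPCPD1 stayed first for SLFN5, at 0.059. These distances are descriptions over libraries that share a line.

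The table held 2 other genes whose symbols start with SLFN. SLFNL1, which lies outside the cluster, had 333 and 429 counts in HUCCT1 vehicle, 535 and 539 in HUCCT1 decitabine and 227 to 310 in EGI-1. SLFNL1-AS1, which overlaps it on the opposite strand, had 416 and 438 in HUCCT1 vehicle, 676 and 561 in HUCCT1 decitabine and 276 to 424 in EGI-1. Both were higher in the HUCCT1 decitabine libraries than in the vehicle libraries by raw count, and without knowledge of strand in the counting the reads of this pair cannot be told apart.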

How the data were processed

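RNA was sequenced from 12 libraries, 8 of EGI-1 and 4 of HUCCT1. Per the labels, the authors deposited raw read counts per gene from fastp, Trim Galore, HISAT2 and featureCounts on GRCh38, whereas the study's methods name STAR, RSEM and DESeq2. Strand setting, treatment of multi-mapping reads and annotation release are not given in the sources used here, and the names of both libraries with talazoparib alone carry 50 where the labels give 200 nM. Ensembl identifiers were matched to symbols for 60437 genes (214 unmatched), and lengths came from GENCODE release 44. Counts were filtered (filterByExpr by group), scaled with TMM and tested with the edgeR 4.0.16 quasi-likelihood test in R 4.3.3, two-sided, with Benjamini-Hochberg adjustment over all genes tested and calls at an adjusted p under 0.05. EGI-1 (8 libraries), HUCCT1 (4) and both (12, for comparisons between lines) were fitted separately. CPM used TMM factors over all 12 libraries, bounds used library totals, and the script was tested on simulated data. Named genes were the 6 members, other SLFN symbols, up to 3 called genes with the largest change per list and of the neighbours, and the 3 genes closest in pattern. The members and lists were chosen with earlier results of these data known. DESeq2 1.42.0, other scalings, no filter, replicate blocks, other sample sets and leaving out each library were tried as alternatives. The closest genes to SLFN13 without EGI-1 combination replicate 2, and some single marker values, are not reported here.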

Additional observations from a re-analysis of the deposited data

Results flagged for a closer look

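The decitabine effect on SLFN5 differed between the lines, by 0.62 on the log2 scale (HUCCT1 minus EGI-1), in a test of the difference itself. A difference as high or higher was held by 22.2% of the genes tested. SLFN5 rose in both HUCCT1 libraries given decitabine, whereas of the 2 EGI-1 decitabine libraries 1 lay above and 1 below both vehicle libraries. The doses were 1 and 0.5 µM, and the effects of dose, line and library series cannot be told apart.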

How the results depend on the processing

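SLFN5 and SLFN11 were called higher with decitabine in HUCCT1 under all 10 alternatives (0.48 to 0.67 and 1.62 to 1.80), and the difference in SLFN5 effect between lines under all 13 (0.46 to 0.78). The SLFN11 call lay just under the threshold with all 12 libraries in one fit (SE 0.59, adjusted p = 0.0496, edgeR). In EGI-1 the counts of members called moved from 0. Against vehicle, the combination gave 1 with DESeq2 size factors, 3 without the low-count filter, 1 with all 12 libraries in one fit and 1 from the 2 arms alone, and talazoparib gave 1 from the 2 arms alone. The combination against decitabine gave 2 without the filter and 1 with all 12 libraries, and against talazoparib 2 and 1. Leaving out each library gave 0 to 3 for the combination against vehicle, 0 to 2 against decitabine and 0 to 1 beyond the summed effects. Members above 3 counts in a combination library were 2 without combination replicate 2, an alternative chosen after seeing the data, as were the likeness and the listed genes without it. The fold changes that crossed 0 when a library was left out were SLFN5 with decitabine (-0.19 to 0.13), SLFN5 for the combination against decitabine (-0.0018 to 0.31), SLFN12 for the combination against talazoparib (-0.14 to 0.16) and SLFN12 beyond the summed effects (-0.32 to 0.015). SLFN12 against talazoparib was also -0.0019 with upper-quartile factors. The causes were not tested. Samples with the same title number did not deviate together (correlations of -0.068 to 0.057 in EGI-1, and 0.109 in HUCCT1 with only 2 numbers), so the numbers were not taken as pairs. The EGI-1 library names form 2 series, with a letter alone or a letter and a number, which the title numbers cut across. Paired by these series, the correlations were also -0.068 to 0.057. The replicate block by title number left 3 members called in HUCCT1, 3 between the lines, 1 in the difference of effects and 0 in EGI-1. A block by name series also left 0 in EGI-1. Over all genes, calls against vehicle in EGI-1 numbered 122 with decitabine (22 without vehicle replicate 2, 417 without decitabine replicate 1), 923 with talazoparib (247 without vehicle replicate 1, 1851 from the 2 arms alone) and 4194 with the combination (1850 without vehicle replicate 2, 5799 from the 2 arms alone). The combination gave 1720 against decitabine (853 without combination replicate 2, 2544 at most), 431 against talazoparib (111 without talazoparib replicate 2, 897 without the filter) and 36 beyond the summed effects (27 to 85, the latter without decitabine replicate 1). The difference of effects gave 4000 (2540 without EGI-1 vehicle replicate 2). CPM by library total was 1.04 to 1.06 times the TMM value in EGI-1 and 0.876 to 0.923 times in HUCCT1. Depth limits SLFN12L and SLFN14, which stayed at or under 12 counts.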
